A study of Mus musculus with 3 samples.

Results

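Enteroendocrine cells are the hormone-producing cells of the gut epithelium, and 10 genes that mark them were followed here on the colonic arrays: the hormone genes Insl5, Gcg, Pyy, Tac1, Sst, Cck and Nts, the granins Chga and Chgb, and the transcription factor Neurod1. Each gene was represented by the probe set that carried its symbol alone, and all 10 had 1 such probe set, among 19938 genes with a symbol of their own on the array. The arrays held RNA of distal colon, taken on day 7 from male mice of the BALB/c strain aged 10 to 12 weeks. IL-4Rα-/- colitis was RNA pooled from 6 mice that lack the α subunit of the IL-4 receptor in all cells, through a targeted Il4ra allele, and drank 3% dextran sulfate sodium (DSS). WT colitis was RNA pooled from 3 wild-type mice given the same 3% DSS, and WT normal was RNA pooled from 4 wild-type mice given water. DSS injures the colonic epithelium and causes acute colitis. No IL-4Rα-/- normal array was analysed here, so the effect of the genotype without colitis cannot be told from these data.

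Each group was 1 array of pooled RNA. There is thus no spread between samples, no p-value, and no error on any difference below, and each difference compares 1 array with another. Values are log2 signals, so a difference of 1 is a 2-fold change, which was the limit used for counting. A signal of 4 was taken as dim, since 1210 probe sets for olfactory and vomeronasal receptors, genes that the colon is not expected to use, had a median log2 signal of 2.44 and a 95th percentile of 3.5. This level is a rough guide, since signals of different probe sets are not directly comparable. Differences were therefore taken only within a gene, across the arrays. Pooled whole colon also cannot separate fewer hormone cells from less RNA of the hormone per cell.

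Enteroendocrine cells arise from crypt progenitors that switch on Neurog3 and then Neurod1, and they store peptides in dense-core granules built with chromogranins. In the distal colon, L cells make peptide YY, the glucagon-like peptides and insulin-like peptide INSL5, D cells make somatostatin, and enterochromaffin cells make serotonin and the tachykinin substance P. Tac1, Sst and the granins are also expressed by enteric neurons.

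The promoters of 5 of the genes are shown because these genes include those with the largest differences and those that hold the motifs named here, as the last 150 bases before the annotated transcription start (RefSeq, GRCm38.p6, all 10 genes matched). Insl5 and Pyy have 2 annotated starts each. Both are shown for Insl5, and for Pyy start 1 is shown, whose window overlaps that of start 2. Insl5, Gcg and Pyy encode the L cell hormones, Sst encodes the D cell hormone, and Chgb shares with Sst an element that is rare among promoters. Capitals mark the cAMP response element TGACGTCA and the TATA box TATAAA, which is marked on either strand.
Insl5 start 1, chr4:103027272-103027421, minus strand: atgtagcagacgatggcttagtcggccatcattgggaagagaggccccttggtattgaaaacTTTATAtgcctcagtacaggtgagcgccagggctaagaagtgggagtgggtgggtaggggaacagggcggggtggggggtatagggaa
Insl5 start 2, chr4:103026729-103026878, minus strand: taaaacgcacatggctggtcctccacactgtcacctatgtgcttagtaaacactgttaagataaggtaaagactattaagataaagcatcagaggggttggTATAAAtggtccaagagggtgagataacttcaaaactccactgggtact
Gcg, chr2:62483654-62483803, minus strand: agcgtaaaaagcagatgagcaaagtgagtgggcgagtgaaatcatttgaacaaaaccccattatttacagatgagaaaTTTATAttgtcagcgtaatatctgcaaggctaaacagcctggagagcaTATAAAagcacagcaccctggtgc
Pyy start 1, chr11:102107833-102107982, minus strand: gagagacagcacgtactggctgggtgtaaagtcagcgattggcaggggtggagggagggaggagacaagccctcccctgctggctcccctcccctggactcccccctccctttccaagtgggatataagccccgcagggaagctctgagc
Sst, chr16:23890845-23890994, minus strand: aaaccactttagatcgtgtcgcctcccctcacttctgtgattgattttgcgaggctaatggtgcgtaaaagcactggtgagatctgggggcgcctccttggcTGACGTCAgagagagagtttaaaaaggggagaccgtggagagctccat
Chgb, chr2:132781492-132781641, plus strand: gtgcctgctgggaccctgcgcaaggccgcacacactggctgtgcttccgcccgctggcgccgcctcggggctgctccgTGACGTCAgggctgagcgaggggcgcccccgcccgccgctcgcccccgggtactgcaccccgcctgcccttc

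In the 250 bases before the start, TGACGTCA was found in 2 of the 10 genes, Sst (48 bases before the start) and Chgb (72 bases before it), and in 1.55% of 32851 promoters of the same length. TATAAA was found in Gcg (72 and 24 bases before the start) and in Insl5 (88 bases before start 1 and 49 bases before start 2), and in 12.4% of all promoters. The E-box CANNTG, the core to which NEUROD1 and its relatives bind, was found in all 10 genes, but also in 66.2% of all promoters. CCAATAAA, a site that posterior HOX proteins can bind, was found in 0 of the 10 and in 1.02% of all promoters. Both strands were searched, and a match of letters describes the sequence without showing that a factor binds there. Sst and Chgb share the cAMP response element. Chgb had equal values on all arrays, which is not evidence that it did not differ, so its profile cannot be compared with that of Sst.

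The genes of the L cell hormones were lowest on the WT colitis array. Insl5, a relaxin-family hormone of distal colonic L cells that acts on the receptor RXFP4, had a log2 signal of 8.75 in IL-4Rα-/- colitis, 7.27 in WT colitis and 9.13 in WT normal. Pyy, peptide YY, which slows gut transit and curbs appetite, had 9.21 in IL-4Rα-/- colitis, 8.05 in WT colitis and 9.18 in WT normal. Gcg, the precursor of the glucagon-like peptides, had 8.34 in IL-4Rα-/- colitis, 8.05 in WT colitis and 8.67 in WT normal. All 3 genes were thus lowest in WT colitis, and all 3 were far above the dim range on every array.

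Insl5 was 2.79-fold higher in IL-4Rα-/- colitis relative to WT colitis (log2 difference of 1.48), the rank of 22 from the top among 19938 genes. It was 3.63-fold lower in WT colitis relative to WT normal (-1.86), the rank of 33 from the bottom. Pyy was 2.23-fold higher in IL-4Rα-/- colitis relative to WT colitis (1.16, rank 37) and 2.19-fold lower in WT colitis relative to WT normal (-1.13, rank 67 from the bottom). The difference was smaller for Gcg, at 1.22-fold higher in IL-4Rα-/- colitis relative to WT colitis (0.29) and 1.54-fold lower in WT colitis relative to WT normal (-0.62). These comparisons share the WT colitis array, so a value that is low on that array alone gives opposite differences in both. In the comparison without it, IL-4Rα-/- colitis minus WT normal, Insl5 differed by -0.38, Gcg by -0.33 and Pyy by 0.03 on the log2 scale.

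Sst and Tac1 were highest on the WT colitis array. Sst, somatostatin, which inhibits the release of other gut hormones, had 7.62 in IL-4Rα-/- colitis, 8.91 in WT colitis and 8.41 in WT normal. Its highest value was thus in WT colitis and its lowest in IL-4Rα-/- colitis, below WT normal. Sst was 2.44-fold lower in IL-4Rα-/- colitis relative to WT colitis (-1.29, rank 94 from the bottom), and 1.41-fold higher in WT colitis relative to WT normal (0.50). Between IL-4Rα-/- colitis and WT normal, the difference was -0.79 (1.73-fold lower, rank 102 from the bottom). Of the 10 genes, Sst had the largest difference between IL-4Rα-/- colitis and WT normal. Tac1, the precursor of substance P and neurokinin A, had 6.51 in IL-4Rα-/- colitis, 7.04 in WT colitis and 6.00 in WT normal. It was 1.44-fold lower in IL-4Rα-/- colitis relative to WT colitis (-0.53) and 2.06-fold higher in WT colitis relative to WT normal (1.04), just past the 2-fold limit. In IL-4Rα-/- colitis Tac1 stayed 1.42-fold above WT normal (0.51).

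Of the remaining genes, only Chga had values that differed between arrays. Chgb, Cck, Nts and Neurod1 had equal values, which is not evidence that they did not differ. Chga, chromogranin A, a core protein of the hormone granule, had 6.94 in IL-4Rα-/- colitis, 6.98 in WT colitis and 7.30 in WT normal. Both colitis arrays were therefore close to each other and lower than WT normal, by -0.36 and -0.32. Chgb, chromogranin B, had 7.27 on every array. Cck (cholecystokinin, a hormone mainly of the upper small intestine) had 4.11, Nts (neurotensin, mainly of the ileum) 2.90 and Neurod1 3.41, again the same on every array. Nts and Neurod1 were in the dim range, and Cck was just above it.

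**Figure D1:**
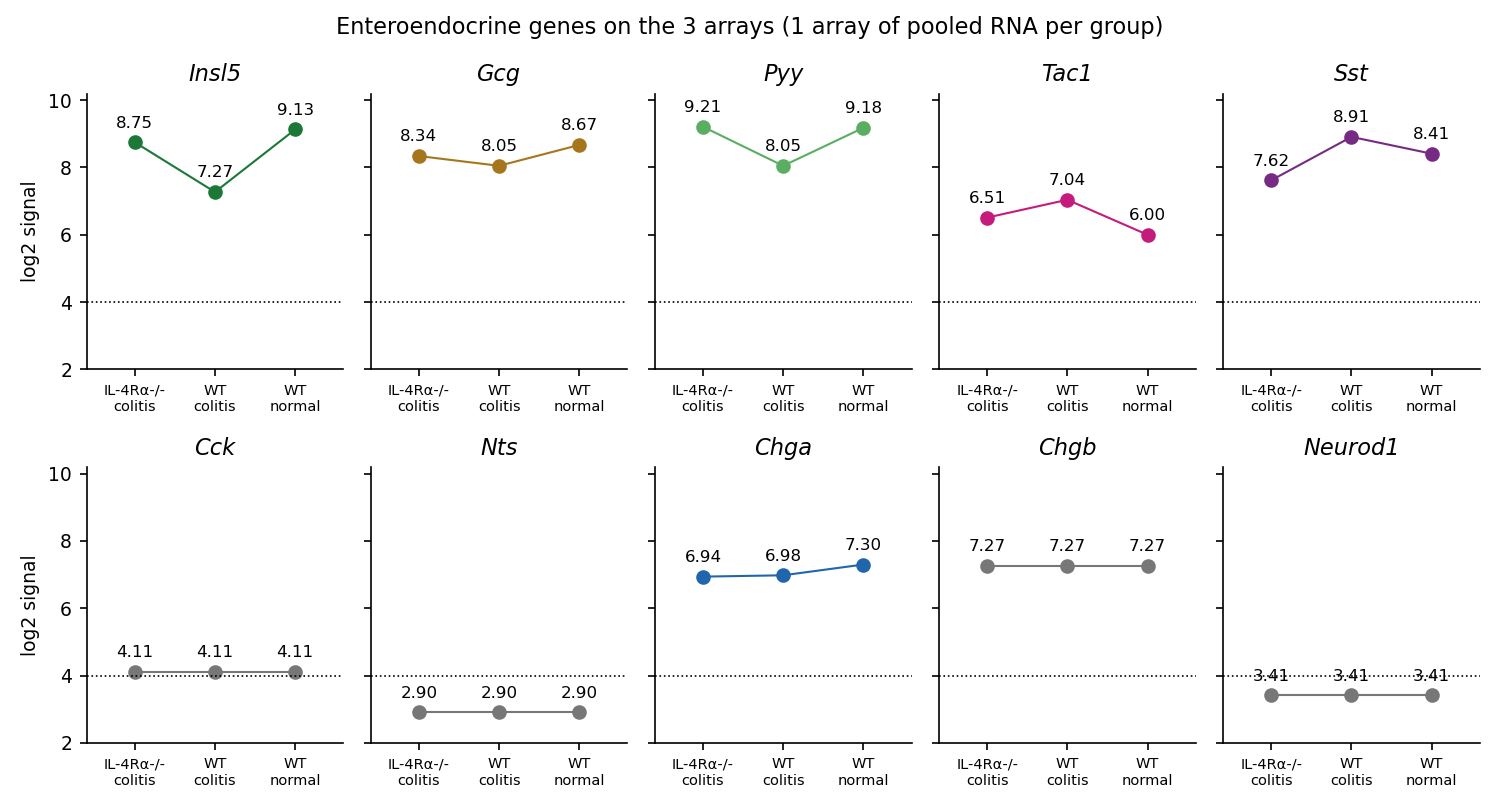
Log2 signal (y axis) of each of the 10 genes on the IL-4Rα-/- colitis, WT colitis and WT normal arrays (x axis), 1 point per array with its value, joined by lines, and a dotted line at the dim level of 4. Insl5, Pyy and Gcg are lowest in WT colitis, Sst and Tac1 are highest there, and Cck, Nts, Chgb and Neurod1 are level.

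Identical values need care. Of the 19938 genes, 45.8% had the same value to 2 decimals on all 3 arrays, among them 3549 of the 11092 genes with a mean log2 signal of at least 4, and a further 20.0% of all genes had the same value in IL-4Rα-/- colitis and WT normal with another in WT colitis. The sources used here do not give the processing step behind these equal values. A value that is equal on all arrays, as in 4 of the 10 genes, was therefore taken as no measured difference and not as evidence that the gene did not differ.

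Counted over the 10 genes, 2 were past 2-fold upward for IL-4Rα-/- colitis against WT colitis (Insl5 and Pyy, with 0.271% of all genes) and 1 was past 2-fold downward (Sst, with 0.908% of all genes). For WT colitis against WT normal, 1 was past 2-fold upward (Tac1, with 1.16% of all genes) and 2 were past 2-fold downward (Insl5 and Pyy, with 0.456% of all genes). Between IL-4Rα-/- colitis and WT normal, 0 of the 10 were more than 2-fold higher and 0 lower, against 0.186% and 0.336% of all genes. WT colitis was below both other arrays for 3 of the 10, against 6.61% of all genes and 10.3% of genes with a mean log2 signal of at least 4. It was above both for 2 of the 10, against 30.4% and 37.9% of these genes. Being lowest in WT colitis was not particular to the 10. It also held for 4 of 14 genes of colon epithelium and 2 of 8 goblet cell genes. The small intestinal list had 3 of 10 and the list for distal gut position 3 of 8. In the other lists read below the share was 0% to 18.2%. These shares count order and not size. The largest upward difference for IL-4Rα-/- colitis minus WT colitis was 0.21 in colon epithelium and 0.24 in goblet cell genes. It was 0.28 in the small intestinal list and 1.97 in the list for distal gut position. Among the 10, Insl5 had 1.48, Pyy 1.16 and Gcg 0.29. The median difference of the 10 was 0 in each comparison, as was that of all genes.

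**Figure D2:**
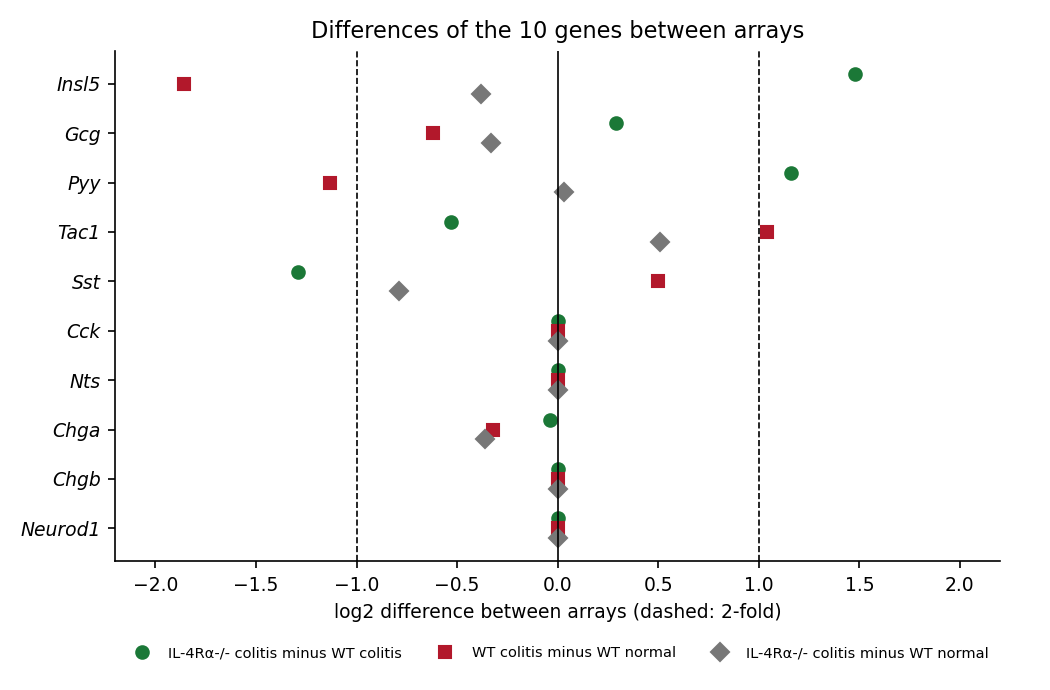
Log2 difference between arrays (x axis) of the 10 genes (y axis) for IL-4Rα-/- colitis minus WT colitis (circles), WT colitis minus WT normal (squares) and IL-4Rα-/- colitis minus WT normal (diamonds), with dashed lines at 2-fold. The circles of Insl5 (1.48) and Pyy (1.16) lie to the right and that of Sst (-1.29) to the left, while every diamond lies between -0.79 and 0.51.

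Other genes of the hormone cells gave few differences. Among 10 further genes, those of other gut hormones and Tph1, the enzyme of serotonin synthesis in enterochromaffin cells, 0 were past 2-fold in any comparison and 5 were dim on all arrays. Tph1 had 6.16 in IL-4Rα-/- colitis, 6.68 in WT colitis and 6.40 in WT normal, so it was highest in WT colitis, as Sst and Tac1 were, with a smaller range. Nmu, neuromedin U, had 4.98 in IL-4Rα-/- colitis, 5.78 in WT colitis and 5.74 in WT normal. It was lowest in IL-4Rα-/- colitis, as was Sst and as were 12.3% of all genes. Ppy, pancreatic polypeptide, whose gene lies next to Pyy, had 8.29 in IL-4Rα-/- colitis, 8.10 in WT colitis and 8.11 in WT normal and did not follow Pyy.

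Of 16 other granins and genes of hormone processing, 0 were past 2-fold and 11 had equal values on all arrays. The equal ones included Pcsk1, the prohormone convertase that cuts several of these precursors (6.20), and Pam, which amidates peptides such as peptide YY (8.28). WT colitis was above both other arrays for 5 of the 16 (31.25%, against 30.4% of all genes) and below both for 0 (against 6.61%). These 5 were all the genes of the list whose values differed between arrays. Equal values made up 68.75% of the list against 45.8% of all genes, so these shares are not directly comparable. Cpe, a carboxypeptidase that trims the cut peptides, was among the 5 (6.21 in IL-4Rα-/- colitis, 6.80 in WT colitis and 6.21 in WT normal). Ptprn, a membrane protein of dense-core granules, had 4.76 in IL-4Rα-/- colitis, 5.55 in WT colitis and 5.37 in WT normal. Of 15 other enteroendocrine transcription factors, 13 had equal values on all arrays, 11 were dim on all arrays and 0 were past 2-fold, so these arrays say little about them. Neurog3, which starts the lineage, was dim at 3.31 on all arrays. The 15 measured nutrient and metabolite sensors gave 0 past 2-fold, with 10 dim on all arrays.

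On the receptor side, Tacr1 and Tacr2 were highest in WT colitis, as Tac1 was, whereas Tacr3, the other tachykinin receptor gene, was dim at 2.46 on all arrays. Tacr1, the substance P receptor, had 4.86 in IL-4Rα-/- colitis, 6.38 in WT colitis and 4.74 in WT normal. Tacr2, the neurokinin A receptor, which is prominent in gut smooth muscle, had 5.88 in IL-4Rα-/- colitis, 6.97 in WT colitis and 5.80 in WT normal. Relative to WT colitis, Tacr1 was 2.87-fold and Tacr2 2.13-fold lower in IL-4Rα-/- colitis, where both were within 0.12 of WT normal on the log2 scale. Of 22 receptors of these hormones, these were the only genes past 2-fold, and 18 were dim on all arrays, including Rxfp4, the receptor of INSL5, at 3.02, and Npy2r, a receptor of peptide YY, at 3.05. Of 10 peptidases that act on such hormones, only Mep1b, a meprin subunit, was past 2-fold, with 7.56 in IL-4Rα-/- colitis, 6.54 in WT colitis and 6.72 in WT normal. It passed only for IL-4Rα-/- colitis minus WT colitis (1.02, with 0.271% of all genes higher there), next to the limit. Dpp4, which inactivates the glucagon-like peptides and trims peptide YY, had 6.18 in IL-4Rα-/- colitis and 6.00 in both WT groups.

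Markers of other cells and of position along the gut were read beside these results. Of 14 genes of colon epithelium, 0 were past 2-fold in any comparison, with median differences of 0 for IL-4Rα-/- colitis minus WT colitis and -0.13 for WT colitis minus WT normal, and differences from -0.51 to 0.42. The lower Insl5 and Pyy in WT colitis stood beside these epithelial values, and the part of the amount of epithelium in their differences was not tested. Hoxb13, a homeobox gene of the most distal hindgut, had 7.44 in IL-4Rα-/- colitis, 5.47 in WT colitis and 7.92 in WT normal, and was thus lowest in WT colitis, as Insl5 and Pyy were. Of the 8 measured genes for distal gut position, Hoxb13 was the only gene past 2-fold. Hoxa13 had 5.46 in IL-4Rα-/- colitis, 5.19 in WT colitis and 5.39 in WT normal, and Hoxd13 had 6.31 in IL-4Rα-/- colitis, 5.66 in WT colitis and 5.70 in WT normal. Alpi, an alkaline phosphatase mainly of the small intestine, had 5.89 in IL-4Rα-/- colitis, 7.23 in WT colitis and 5.72 in WT normal, but the other 9 of 10 small intestinal genes were within 2-fold, and 5 of the 10 were dim on all arrays. INSL5 is a hormone of the distal colon, and the part of the sampled stretch of colon in its differences was not tested.

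The higher Tac1 and Sst in WT colitis stood beside neuronal markers that were mostly highest there too. Of 19 genes of enteric neurons, WT colitis was above both other arrays for 15 and below both for 0, against the 30.4% and 6.61% of all genes given above. Of the 19, 8 had the same value in IL-4Rα-/- colitis and WT normal with another in WT colitis, and 2 had equal values on all arrays. Equal values are not evidence of no difference. Between IL-4Rα-/- colitis and WT normal, the differences of the 19 ran from -0.49 to 0. Their median difference was -0.40 for IL-4Rα-/- colitis minus WT colitis and 0.26 for WT colitis minus WT normal. Of these, 3 neuropeptide genes were more than 2-fold lower in IL-4Rα-/- colitis relative to WT colitis (with 0.908% of all genes), all highest in WT colitis. Gal, galanin, had 5.80 in IL-4Rα-/- colitis, 7.15 in WT colitis and 5.91 in WT normal. Penk, the enkephalin precursor, had 7.13 in IL-4Rα-/- colitis, 8.47 in WT colitis and 7.13 in WT normal. Vip, vasoactive intestinal peptide, had 5.14 in IL-4Rα-/- colitis, 6.46 in WT colitis and 5.63 in WT normal. Elavl4, a pan-neuronal marker, was dim on all arrays, at 2.81 in IL-4Rα-/- colitis, 3.21 in WT colitis and 2.84 in WT normal. The part of neurons in the differences of Tac1 and Sst was not tested.

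**Figure D3:**
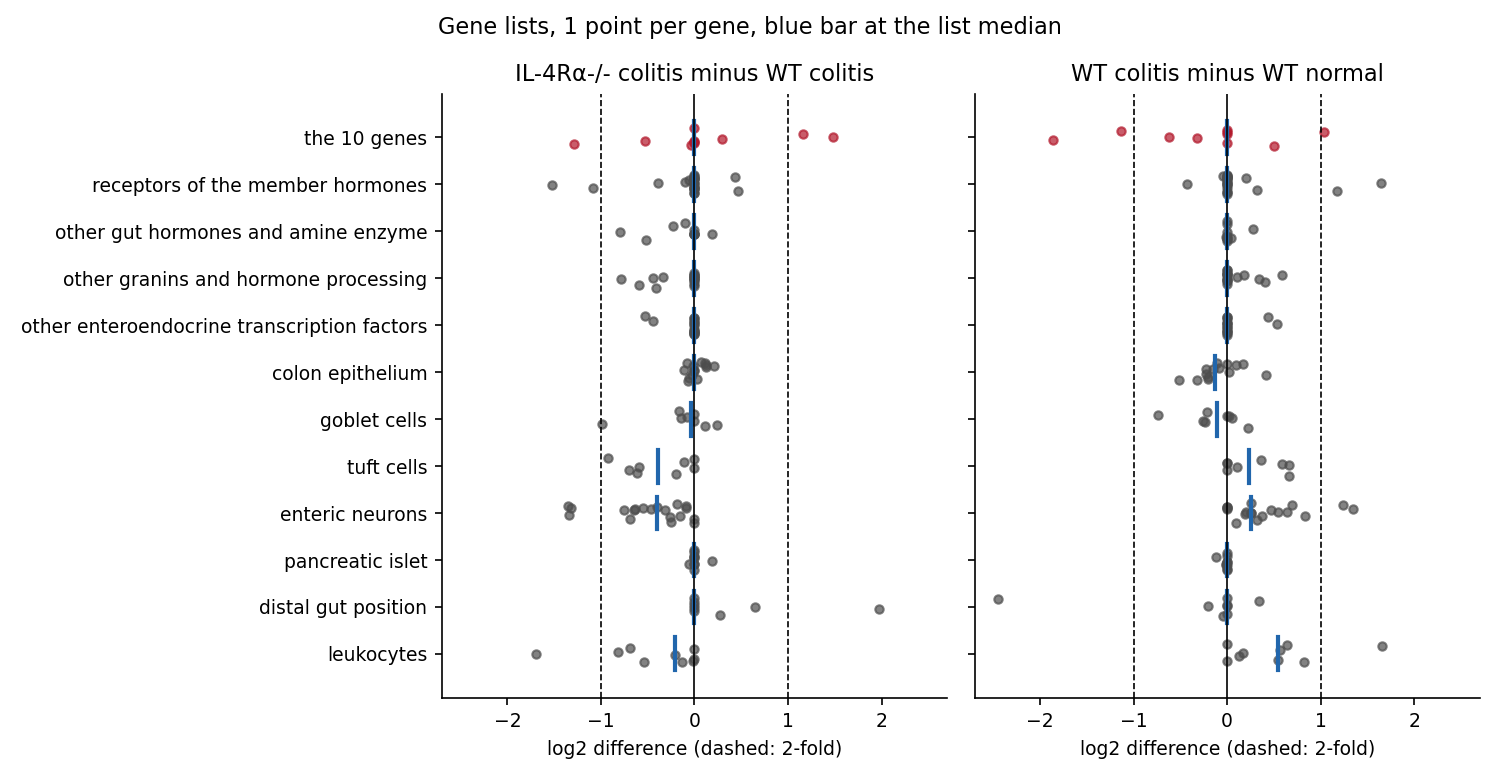
Log2 difference (x axis) for IL-4Rα-/- colitis minus WT colitis (left) and WT colitis minus WT normal (right) of the genes of each list (y axis), 1 point per gene, with a blue bar at the list median and dashed lines at 2-fold. Genes of enteric neurons lie at or left of 0 in the left panel and at or right of 0 in the right panel, whereas the 10 enteroendocrine genes lie on both sides in each.

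Goblet, tuft and immune cell markers were also read. Of 8 goblet cell genes, 1 was past 2-fold, Clca1, with 11.10 in IL-4Rα-/- colitis, 12.09 in WT colitis and 12.31 in WT normal. It passed only for IL-4Rα-/- colitis minus WT normal (-1.21, with 0.336% of all genes lower there), and had -0.99 for IL-4Rα-/- colitis minus WT colitis. The 8 tuft cell genes had a median difference of -0.395 for IL-4Rα-/- colitis minus WT colitis, with 0 past 2-fold. Of 9 leukocyte genes, WT colitis was above both other arrays for 6, against 30.4% of all genes. S100a8, a neutrophil protein, was the only gene of the 9 past 2-fold, with 2.58 in IL-4Rα-/- colitis, 4.27 in WT colitis and 2.62 in WT normal. Its signal was dim in IL-4Rα-/- colitis and WT normal and just above the dim level in WT colitis.

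Pancreatic RNA bears on Gcg, Sst, Pyy and Chga, since islet cells express them too. All 11 measured genes of pancreatic acinar cells were more than 2-fold lower on both colitis arrays than in WT normal. Ctrb1 had 3.03 in IL-4Rα-/- colitis, 3.49 in WT colitis and 10.55 in WT normal, and Cpa1, Try5 and Cela3b were likewise far lower in colitis, with 2.76 to 3.21 on the colitis arrays and 7.80 to 8.53 in WT normal. Of 10 measured islet genes, 9 were dim on all arrays and 0 were past 2-fold, and Ins2, insulin, was 2.62 on every array. The exception was Ppy, given above, which was not higher in WT normal. The part of islet RNA in the hormone signals of WT normal was not tested beyond these values.

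**Figure D4:**
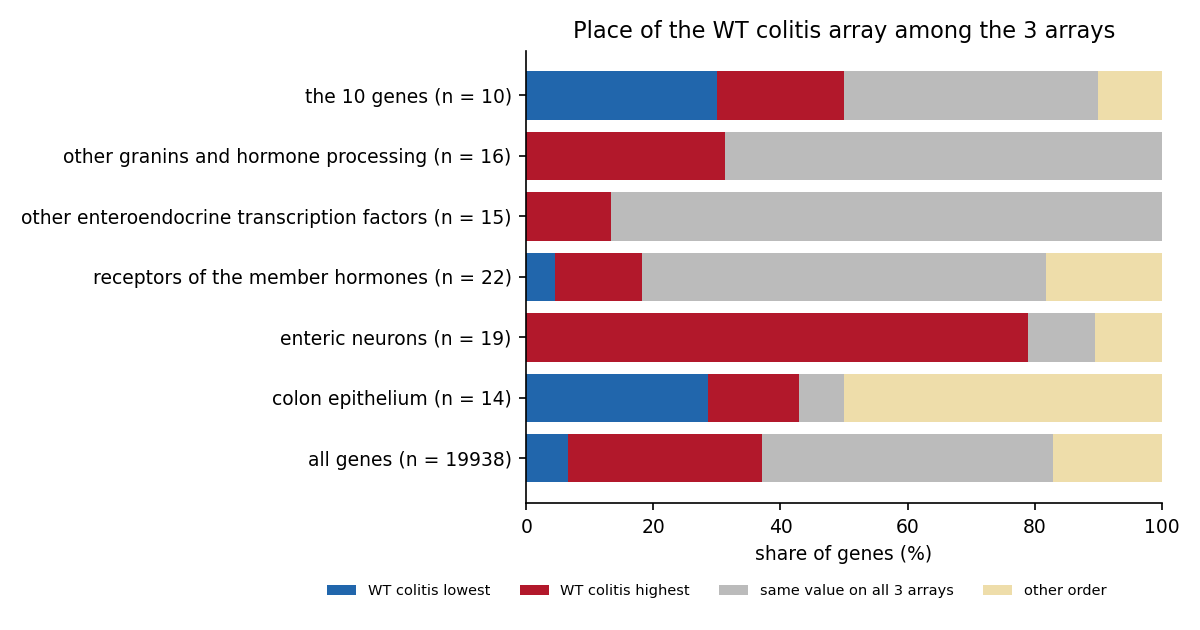
Share of genes (x axis, %) in which the WT colitis array was lowest, highest or equal to both others, or in another order, for the 10 enteroendocrine genes, related lists and all genes (y axis). WT colitis was lowest for 3 of the 10 genes, for 4 of the 14 genes of colon epithelium and for 0 of the 19 genes of enteric neurons. Of the 10 genes, 40.0% had equal values on all arrays.

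The pools also differed in severity. The labels give a body weight of 95.1 to 100.8% of the initial weight for the mice of the IL-4Rα-/- colitis pool, 78.0 to 83.8% for WT colitis and 97.6 to 104.0% for WT normal, and a disease activity index of 0 to 3 for IL-4Rα-/- colitis, 3 to 4 for WT colitis and 0 for WT normal. Colon length was 8.2 to 11.3 cm in IL-4Rα-/- colitis, 7.8 to 8.2 cm in WT colitis and 10.5 to 12.6 cm in WT normal. Genotype and severity of colitis cannot be told apart between the colitis arrays, and the share of single mice in a pool cannot be seen. Il4ra, the deleted gene, had 4.76 in IL-4Rα-/- colitis, 6.63 in WT colitis and 5.69 in WT normal. It was lowest in the IL-4Rα-/- pool, though not dim there, and where its probes lie relative to the deletion is not known here.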

How the data were processed

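Total RNA of the distal colon was pooled by group and measured on the Mouse Gene 1.0 ST GeneChip, with 1 array per group. The authors deposited log2 signals for 28944 probe sets, between 1.41 and 13.34, with array medians of 4.11 in IL-4Rα-/- colitis, 4.18 in WT colitis and 4.11 in WT normal. The study's methods name the GeneChip Analysis Suite and the Transcriptome Analysis Console, whereas the labelling protocol in the labels names a Cy3 kit of another maker, and the sources used here do not give the summary and scaling method. Symbols came from the platform annotation, and the 21789 probe sets with 1 symbol gave 19938 genes, each represented by its probe set with the highest mean over the 3 arrays. Log2 differences were taken between arrays as deposited, and genes past 2-fold were counted. With 1 array per group no test was possible, and the number of arrays limits the precision.

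The 10 genes and all lists were chosen with earlier results of these data known. Named from the lists were up to 4 genes each with the largest difference past 2-fold and a log2 signal of at least 4 on some array, and Il4ra. Other genes (Tph1, Nmu, Ppy, Pcsk1, Pam, Cpe, Ptprn, Neurog3, Tacr3, Rxfp4, Npy2r, Dpp4, Hoxa13, Hoxd13, Elavl4 and Ins2) were named for their role after their values were seen, as were the promoter motifs. Alternatives were quantile normalization, median centring, a filter on dim genes, offsets of 32 and 16 on the linear scale, averaging the probe sets of a gene and scaling to the epithelial median. Counting was tested on simulated data. Python 3.11.15, numpy 2.4.6, pandas 2.3.3 and matplotlib 3.10.9 were used.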

Additional observations from a re-analysis of the deposited data

Results flagged for a closer look

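In the pool of 6 IL-4Rα-/- colitis mice, 1 mouse had a disease activity index of 3, while the others had 0 or 1. Its gap to the nearest mouse was large for the range of the group. What share of the pooled RNA came from this mouse cannot be seen on the array.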

How the results depend on the processing

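Of the counts of the 10 genes past 2-fold, 37 of 42 under the alternatives equalled the count in the report. Some of these could not have differed. Averaging probe sets cannot change the 10 genes, which have 1 probe set each. The filter on dim genes removed only Nts and Neurod1, which had equal values on all arrays. For IL-4Rα-/- colitis minus WT colitis the epithelial median was 0, so subtracting it changed nothing. The count of genes more than 2-fold higher in WT colitis relative to WT normal, which was Tac1 alone, was 0 with quantile normalization, median centring and offsets of 32 and 16, since the difference of 1.04 lies next to the limit. It ranged from 0.769 to 1.17 over the alternatives. With the epithelial median subtracted, 1 gene (Insl5) was more than 2-fold lower in WT colitis relative to WT normal, as Pyy then had a difference of -1.0, at the limit. With the filter on dim genes, the median of the 8 genes left without Nts and Neurod1 was -0.165 for IL-4Rα-/- colitis minus WT normal. It was -0.16 for WT colitis minus WT normal. With the epithelial median subtracted, the median of the 10 was 0.12 and 0.13 in these comparisons. For IL-4Rα-/- colitis minus WT colitis it ranged from 0 to 0.07. Subtracting the epithelial median shifted the median of all genes by 0.13 and 0.12 in the comparisons with WT normal. For IL-4Rα-/- colitis minus WT colitis, Insl5 ranged from 1.31 to 1.55, Pyy from 1.07 to 1.23 and Sst from -1.29 to -1.17, so these calls and their directions held under each alternative. No called value changed sign, but this is no check, since offsets keep the order of values and the other alternatives moved the called values little. No array could be left out, since each group has 1, and dim signals limit Nts, Neurod1, most receptors and most transcription factors.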
